A study of Homo sapiens with 6 samples.

Results

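The genes that write, erase and read lysine acetylation were followed in MDA-MB-231BR cells in which ACSS2 was targeted by a short hairpin RNA (shRNA). They were chosen by symbol from a list of 39 genes. All 39 were found among the 17721 genes of the deposited table, and all 39 were among the 13003 genes with enough counts to be tested. They are 12 acetyltransferases, 11 zinc-dependent deacetylases, 7 sirtuins and 9 bromodomain genes. MDA-MB-231BR is a brain-seeking derivative of the triple-negative human breast cancer line MDA-MB-231. Both groups grew as monocultures in serum-containing medium and carried a lentivirally delivered hairpin under stable selection. The controls expressed a control shRNA (shSCR in the protocol, 3 libraries) and the knockdown cells an ACSS2 shRNA (3 libraries). Per the labels these are biological replicates, numbered 1 to 3 in each group by a batch tag. The sources used here do not give the number of ACSS2 hairpins or say whether a culture stems from 1 clone. RNA came from cultured cells, not from brain lesions. The comparison asks which of these transcripts differ when ACSS2, a source of acetyl-CoA, is targeted.

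ACSS2 makes acetyl-CoA from acetate in the cytosol and nucleus. Acetyltransferases ("writers") pass the acetyl group of acetyl-CoA to lysines of histones and other proteins. Zinc-dependent deacetylases and the NAD-dependent sirtuins ("erasers") remove it, and bromodomains ("readers") bind the acetylated lysine and bring transcription and chromatin-remodelling proteins to it. Several of these proteins, among them p300, NCOA3 and ATAD2, are known as coactivators in breast cancer cells. The data are mRNA levels, and acetylation and protein were not analysed here.

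ACSS2 itself, on chromosome 20 (34866614 to 34955813, GRCh38), had 76.3, 71.2 and 164 CPM (counts scaled to a common library total with TMM factors) in control replicates 1, 2 and 3. The matching ACSS2 shRNA libraries had 11.1, 50.5 and 88.7. The knockdown library was the lower one in each of the 3 pairs of equal number, by 2.76, 0.49 and 0.88 on the log2 scale, but the groups overlapped, since ACSS2 shRNA replicate 3 lay above control replicates 1 and 2. The log2 fold change was -1.05 (SE 0.64, adjusted p = 0.504, edgeR quasi-likelihood F test with Benjamini-Hochberg adjustment) without a term for the replicate number, and it passed under none of the unblocked alternatives (adjusted p from 0.311 to 0.743). Leaving out control replicate 3 moved that value to -0.56, and leaving out ACSS2 shRNA replicate 1 or 3 moved it to -0.59 or -1.75. With the replicate number as a block it was -1.31 (SE 0.30, adjusted p = 0.00757), and DESeq2 with the block did not call it (-1.38, adjusted p = 0.124). Without replicate 1 the value with the block was -0.70 (adjusted p = 0.00255). The libraries labelled ACSS2 shRNA differed in their ACSS2 mRNA level, as did the controls. How far each was lowered therefore depends on the pairing by number.

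Total counts per library ran from 15048275 to 18608124, with 15062 to 15465 genes above 0. The 6 marker genes of MDA-MB-231 summed to 11500 to 13600 CPM in control and 11200 to 12800 CPM in ACSS2 shRNA, with CD44 and CAV1 lower with the block. Among markers of other cells, the luminal list summed to 532 to 1060 and 590 to 882 CPM, mostly KRT8 and KRT18. CDH1 was under 1 CPM throughout and GATA3 was lower with the block. The fibroblast list summed to 15.6 to 19.9 CPM in control and 28.4 to 53.8 CPM in ACSS2 shRNA, without overlap, with COL1A1 higher with the block and COL1A2, DCN and LUM under 1 CPM. The immune list summed to 408 to 946 and 384 to 842 CPM, mostly CD68, with CD14 higher with the block and PTPRC and CD3E under 1 CPM. The brain list summed to 117 to 241 and 75.3 to 192 CPM, mostly MBP. MBP and RBFOX3 were lower with the block, and GFAP, AQP4 and SYP were under 1 CPM. The part of these differences in the results below was not tested. In bulk RNA, fewer cells of a type and less RNA per cell cannot be told apart.

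Each comparison is given for a pair of fits, called unpaired (group only) and paired (group plus replicate number as an additive block). In the unpaired fit none of the 39 genes passed an adjusted p of 0.05 in edgeR's quasi-likelihood test, and 3 did so at an unadjusted p, namely NCOA3, HDAC4 and HDAC5. Of all 13003 genes tested, 1820 had an unadjusted p under 0.05 in that fit and 0.0692% were called. None of the 39 passed with DESeq2 either, which called 3.99% of all genes, or with limma on log2 TPM, which called 0.0923%. In the authors' deposited table, made with DESeq2, none of the 39 had a q under 0.05 (q from 0.131 to 1), against 2.51% of all genes, and the sign was that of the unpaired fit for 38 of 39. In the paired fit 7 of the 39 were called (17.9%), against 25.1% of all genes tested. EP300, KAT2B, NCOA3, HDAC5 and HDAC6 rose, against 12.7% of all genes rising, and HDAC4 and ATAD2 fell, against 12.4% falling. Over all genes the paired split was 1657 higher and 1608 lower by edgeR, and 2302 higher and 1071 lower by limma on log2(TPM + 1). Below, "rose" and "fell" refer to calls of the paired fit.

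**Figure D1:**
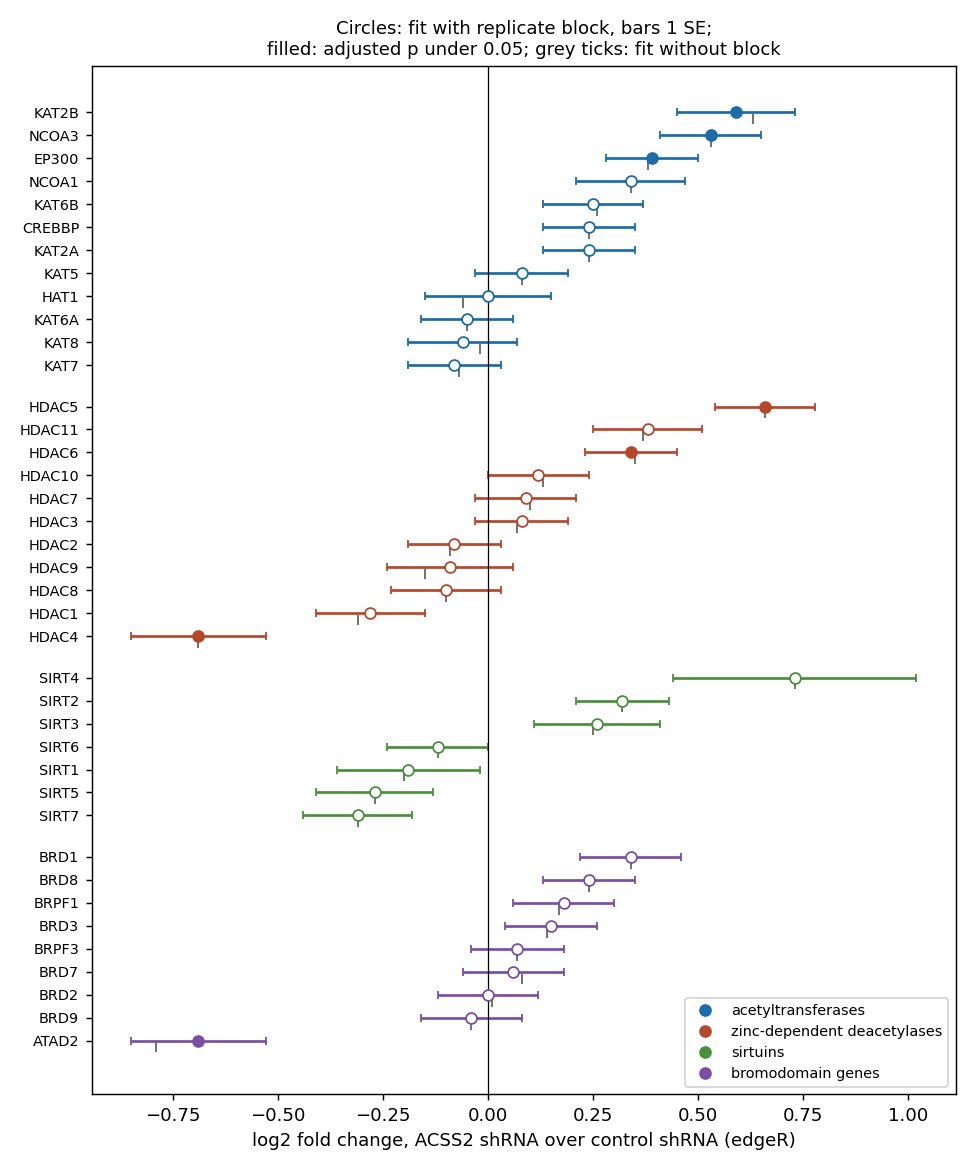
Log2 fold change of ACSS2 shRNA over control for each of the 39 genes in edgeR, by class, with bars of 1 SE; filled circles passed an adjusted p of 0.05 in the paired fit and grey ticks mark the unpaired estimate. The 7 filled circles are KAT2B, NCOA3, EP300, HDAC5 and HDAC6 above 0 and HDAC4 and ATAD2 below 0, and no sirtuin is filled.

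The paired fit called 3 of the 12 acetyltransferases, all higher, and left 9 uncalled, while the unpaired fit called none. The share called in the paired fit was no larger than the 25.1% of all genes tested (12.7% higher and 12.4% lower). The median log2 fold change was 0.24 in both fits, beside 0.02 over all genes tested. Unpaired, it ran from 0.09 without ACSS2 shRNA replicate 1 to 0.34 without control replicate 1. Paired, it ran from 0.18 without replicate 2 to 0.22 without replicate 3. EP300 encodes p300, a broad acetyltransferase and coactivator that marks active enhancers, and lies on chromosome 22 (41091493 to 41237989). It had 136, 96.9 and 105 CPM in control against 173, 131 and 137 in ACSS2 shRNA. Values are in the order of replicates 1, 2 and 3 here and below. The knockdown library was higher in every pair by a similar step (0.35, 0.43 and 0.38 on the log2 scale), while the groups overlapped because control replicate 1 lay above ACSS2 shRNA replicate 2. The paired log2 fold change was 0.39 (SE 0.11, adjusted p = 0.0201), a 1.31-fold rise, and the unpaired one 0.38 (SE 0.19, adjusted p = 0.420). Leaving out replicate 2 (0.33, adjusted p = 0.225) or replicate 3 (0.39, adjusted p = 0.0626) ended the paired call. CREBBP, the paralog of EP300, had 89.3, 60.6 and 60.9 CPM in control against 107, 68.8 and 73.4 in ACSS2 shRNA. It was also higher in all 3 pairs, by less, and did not pass (paired 0.24, SE 0.11, adjusted p = 0.125).

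KAT2B (chromosome 3, 20039829 to 20185421), encoding PCAF, an acetyltransferase of the PCAF-type coactivator complexes, had 19.2, 17.6 and 13.8 CPM in control against 32.7, 29.1 and 16.4 in ACSS2 shRNA. Replicates 1 and 2 carried most of the step (0.76 and 0.72 on the log2 scale, against 0.26 in pair 3), and the groups overlapped through ACSS2 shRNA replicate 3. KAT2B rose 1.51-fold (log2 0.59, SE 0.14, adjusted p = 0.00925 paired and 0.363 unpaired, edgeR), and without replicate 2 the paired adjusted p was 0.0884 (0.49). Its paralog KAT2A, which encodes GCN5 and was the most abundant acetyltransferase mRNA, had 133, 111 and 130 CPM in control against 138, 145 and 159 in ACSS2 shRNA. The KAT2A groups did not overlap, and the gene passed only in limma on log2 TPM with the block (0.35, adjusted p = 0.0244 and 0.0265 for pseudocounts 1 and 0.1), against 0.24 (adjusted p = 0.137) in the paired edgeR fit.

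NCOA3 (chromosome 20, 47438953 to 47938039) encodes a p160 nuclear receptor coactivator that is often amplified in breast cancer. It had 40.5, 47.2 and 48.8 CPM in control against 68.7, 59.1 and 69.7 in ACSS2 shRNA, so that all 3 knockdown libraries lay above all 3 controls. It rose 1.45-fold (log2 0.53, SE 0.12, adjusted p = 0.00703 paired). NCOA3 had the smallest adjusted p of the 39 genes in the unpaired fit, 0.201, and the paired call held under all 8 alternatives (adjusted p from 0.00342 to 0.0262). Its family member NCOA1 had 18.2, 17.2 and 16.5 CPM in control against 25.3, 20.1 and 20.5 in ACSS2 shRNA. The NCOA1 groups did not overlap either, and the gene did not pass (paired 0.34, SE 0.13, adjusted p = 0.0740). The remaining acetyltransferases were the MYST enzymes KAT5, KAT6A, KAT6B, KAT7 and KAT8, of which KAT5 and KAT8 are catalytic subunits of the NuA4 and MSL or NSL complexes, and HAT1, which acetylates newly made histone H4. None of these 6 passed under any setting and the sign of each depended on the setting, so no direction is given for them.

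Among the 11 zinc-dependent deacetylases HDAC5 and HDAC6 rose, HDAC4 fell and 8 were uncalled, while the unpaired fit called none. The share called in the paired fit was 27.3%, beside 25.1% of all genes tested. The median log2 fold change was 0.08 paired and 0.07 unpaired. HDAC4, HDAC5, HDAC7 and HDAC9 are the class IIa deacetylases, signal-controlled corepressors of MEF2 factors that shuttle between nucleus and cytoplasm. Earlier results on these data, which are not independent evidence here, connected the hexamer TGGGTC in 3′ UTRs with genes that fell, so its sites in this group are shown with the hexamer in capitals and 12 bases on either side, 5′ to 3′ on the mRNA strand (GENCODE 29, GRCh38, longest annotated 3′ UTR of each gene).
HDAC4 (chr2:239049985-239050014, minus strand): gtgttctccctgTGGGTCcttggaccttta
HDAC5 (chr17:44078262-44078291, minus strand): aggtgtgccgtgTGGGTCtctcagccttgc
HDAC7, first site (chr12:47783745-47783774, minus strand): agcccccattccTGGGTCtttagagatcct
HDAC7, second site (chr12:47783654-47783683, minus strand): tgagaaaatcccTGGGTCtagaatgggaac
The 3′ UTR of HDAC9 holds none. Of genes with a 3′ UTR within 25% of the same length, 55.3% hold the hexamer for HDAC4 (4929 bases), 30.8% for HDAC5 (1630 bases) and 23.1% for HDAC7 (1119 bases). A match is a description of the sequence and not evidence of a functional site.

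HDAC4 (239047036 to 239401758) had 17.2, 12.8 and 15.9 CPM in control against 8.63, 8.80 and 11.1 in ACSS2 shRNA. All 3 knockdown libraries lay below all 3 controls. HDAC4 fell 1.61-fold (log2 -0.69, SE 0.16, adjusted p = 0.00729 paired and 0.227 unpaired, edgeR). The call was lost in limma on log2(TPM + 1) and log2(TPM + 0.1) with the block (-0.40 and -0.54, adjusted p = 0.0634 and 0.0830). At 3.03 ± 0.281 TPM (transcript abundance scaled for length and library) in control (SD, n = 3) it was the lowest of the 11 deacetylases.

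HDAC5 (44070735 to 44124377) had 85.6, 64.1 and 106 CPM in control against 114, 117 and 174 in ACSS2 shRNA. Again the groups did not overlap, in the opposite direction to HDAC4. HDAC5 rose 1.58-fold (log2 0.66, SE 0.12, adjusted p = 0.00199 paired and 0.286 unpaired, edgeR), which was the smallest paired adjusted p of the 39 genes. It passed under all 8 alternatives to the paired fit (adjusted p from 0.000178 to 0.0380). HDAC7 had 135, 126 and 148 CPM in control against 121, 143 and 175 in ACSS2 shRNA, with overlapping groups and no call. HDAC9 had 36.3, 64.5 and 74.4 CPM in control against 49.8, 48.5 and 60.0 in ACSS2 shRNA. HDAC9 was low in control replicate 1 alone, and its paired value was -0.09 (adjusted p = 0.692) with all libraries and -0.37 (adjusted p = 0.0349) without replicate 1.

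HDAC6 (chromosome X, 48775614 to 48825149) encodes the cytoplasmic tubulin deacetylase. It had 50.6, 54.9 and 68.3 CPM in control against 57.7, 76.9 and 87.4 in ACSS2 shRNA, higher in each pair but with overlapping groups. It rose 1.27-fold (log2 0.34, SE 0.11, adjusted p = 0.0408 paired and 0.477 unpaired, edgeR). Of the 7 calls this was the one most often lost. It did not pass with RLE size factors (0.32, adjusted p = 0.0605), with DESeq2 (0.32, adjusted p = 0.0954) or without the low-count filter (0.32, adjusted p = 0.0643), nor without replicate 2 (0.24, adjusted p = 0.393) or replicate 3 (0.34, adjusted p = 0.113). HDAC10, the polyamine deacetylase and its closest relative, had 33.1, 42.8 and 51.0 CPM in control against 34.2, 55.4 and 49.3 in ACSS2 shRNA, with overlapping groups and no call.

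The class I enzymes HDAC1, HDAC2, HDAC3 and HDAC8, of which the first 3 are catalytic subunits of the nuclear corepressor complexes, did not pass. HDAC1 had 147, 87.5 and 73.9 CPM in control against 105, 65.4 and 78.4 in ACSS2 shRNA. It was lower in pairs 1 and 2 and not in pair 3, and its paired value was -0.28 (adjusted p = 0.131) with all libraries and -0.46 (adjusted p = 0.0245) without replicate 3. The other three class I genes had overlapping groups and a sign that depended on the setting. HDAC11, the only class IV enzyme and a remover of long fatty acyl groups, had 20.6, 16.5 and 19 CPM in control against 23.5, 24.1 and 25 in ACSS2 shRNA. Its groups did not overlap, and it was just short of a call (paired 0.38, SE 0.13, adjusted p = 0.0527), passing in limma on log2 TPM with the block (adjusted p = 0.0335 and 0.0302) and without replicate 1 (0.46, adjusted p = 0.0310).

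**Figure D2:**
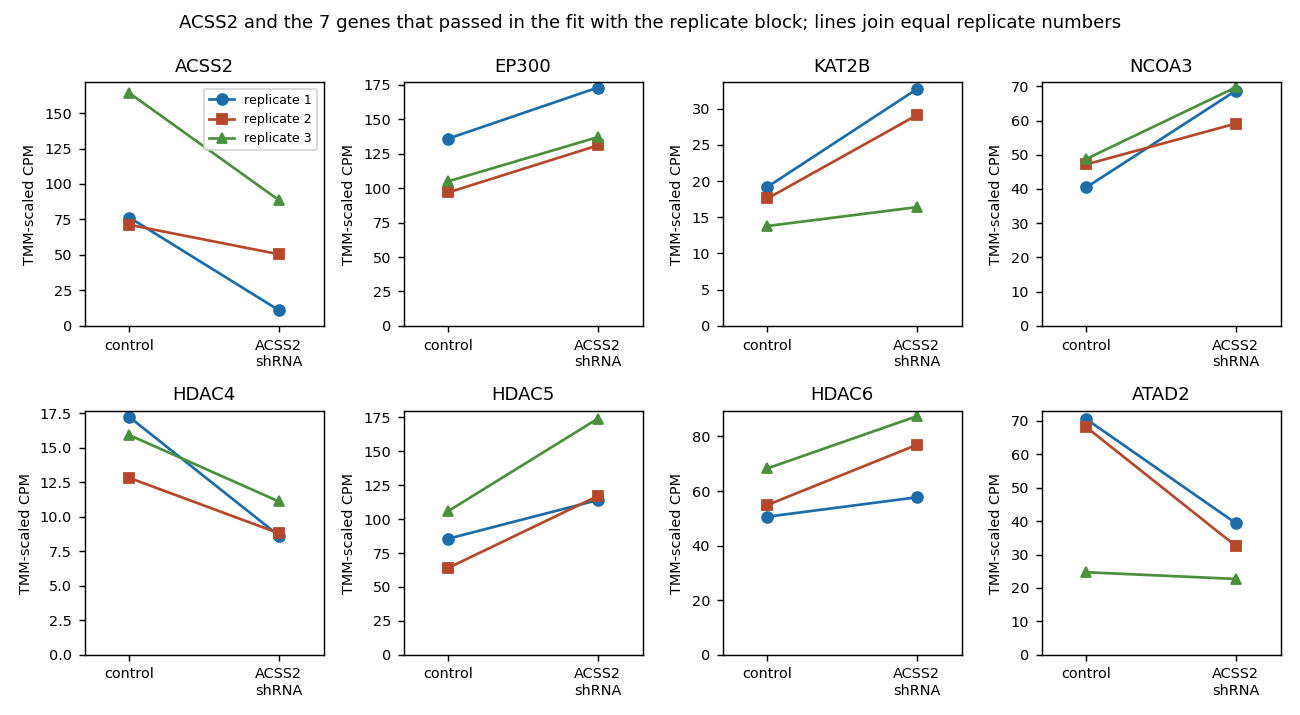
TMM-scaled CPM of ACSS2 and of the 7 genes called in the paired fit, with lines joining the control and ACSS2 shRNA libraries of equal replicate number and axes starting at 0. The lines of each gene run the same way in all 3 pairs, and the ATAD2 line of replicate 3 is nearly flat (24.7 to 22.7 CPM).

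None of the 7 sirtuins passed in either fit, beside 25.1% of all genes called in the paired fit. In the paired fit 3 sirtuins had an unadjusted p under 0.05, against 4944 of all 13003 genes tested. The median log2 fold change was -0.12 in both fits. SIRT2, the mainly cytoplasmic sirtuin and the most abundant of the family, came nearest to a call with 70.3, 53.6 and 65.1 CPM in control against 92.0, 72.2 and 72.3 in ACSS2 shRNA. Its groups did not overlap, and the paired log2 fold change was 0.32 (SE 0.11, adjusted p = 0.0510). It passed in limma on log2 TPM with the block (0.43, adjusted p = 0.0116 and 0.0128) and without replicate 3 (0.41, adjusted p = 0.0450). SIRT7, the nucleolar sirtuin, had 21.5, 19.3 and 20.2 CPM in control against 16.7, 14.3 and 18.4 in ACSS2 shRNA. All SIRT7 knockdown values were below all control values, at a paired log2 fold change of -0.31 (SE 0.13, adjusted p = 0.103). Of the mitochondrial sirtuins, SIRT3, the main mitochondrial deacetylase, had 14.2, 10.0 and 12.8 CPM in control against 15.5, 14.3 and 14.3 in ACSS2 shRNA (paired 0.26, SE 0.15, adjusted p = 0.210). SIRT4 had 1.08, 1.71 and 1.36 CPM in control against 2.34, 2.89 and 1.68 in ACSS2 shRNA. That was the largest paired log2 fold change of the 39 genes in size (0.73), at the lowest level, with a wide error (SE 0.29, adjusted p = 0.0840), and it passed in limma on log2 TPM with the block (adjusted p = 0.0117 and 0.0167). SIRT5, which removes succinyl and malonyl groups, was lower in all 3 pairs (paired -0.27, SE 0.14, adjusted p = 0.189) with overlapping groups. SIRT6, a chromatin-bound deacetylase, stood at -0.12 (SE 0.12, adjusted p = 0.509) and SIRT1 had no constant sign. SIRT2, SIRT3 and SIRT4 were positive and SIRT5, SIRT6 and SIRT7 negative under every setting run. For SIRT6 the value was only -0.01 in limma on log2(TPM + 1), with and without the block.

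Among the 9 bromodomain genes ATAD2 fell, none rose and 8 were uncalled, while the unpaired fit called none. The share called in the paired fit was 11.1%, beside 25.1% of all genes tested. The median log2 fold change was 0.07 paired and 0.08 unpaired. ATAD2, on chromosome 8, encodes an AAA-type ATPase with a bromodomain that is known as an E2F- and MYC-associated coactivator abundant in proliferating cells. It had 70.5, 68.1 and 24.7 CPM in control against 39.4, 32.6 and 22.7 in ACSS2 shRNA. The drop was by 0.84 and 1.06 on the log2 scale in pairs 1 and 2 and by 0.12 in pair 3, where the control library was low as well, and the groups overlapped through that control library. ATAD2 fell 1.62-fold (log2 -0.69, SE 0.16, adjusted p = 0.00773 paired and 0.413 unpaired, edgeR), and it passed under all 8 alternatives to the paired fit (-0.95 to -0.50, adjusted p from 2.51e-06 to 0.0453).

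BRD1, a scaffold of the KAT6 and KAT7 complexes, had 24.7, 20.9 and 23.6 CPM in control against 28.8, 27.7 and 31.3 in ACSS2 shRNA. Its groups did not overlap, and the paired log2 fold change was 0.34 (SE 0.12, adjusted p = 0.0581). BRD1 passed in limma on log2 TPM with the block (0.43 and 0.47, adjusted p = 0.0436 and 0.0394) and without replicate 1 (0.40, adjusted p = 0.0443). Its relatives BRPF1 and BRPF3 did not pass (paired adjusted p = 0.286 and 0.660). BRD8, a subunit of the NuA4 complex, was higher in all 3 pairs with overlapping groups (paired 0.24, SE 0.11, adjusted p = 0.116), and passed in limma on log2 TPM with the block (0.33, adjusted p = 0.0357 and 0.0374). BRD2 and BRD3, the BET readers that tether transcription to acetylated chromatin, did not pass (paired adjusted p = 0.983 and 0.359). BRD2 had 386, 369 and 450 CPM in control against 409, 349 and 454 in ACSS2 shRNA. BRD7 and BRD9, each a subunit of 1 form of the SWI/SNF remodeller, had no constant sign and no call.

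Levels between genes are compared in TPM, which takes gene length into account. BRD2 stood highest, at 211 ± 17.4 TPM in control (SD, n = 3), apart from all others. HDAC1 (85.7 ± 30.9), HDAC3 (82.8 ± 11.1), KAT2A (70.6 ± 3.54), HDAC2 (62.6 ± 15.4), HDAC7 (58.8 ± 3.47) and SIRT2 (57.1 ± 5.17) followed and lay within about 1 SD of their neighbours. The lowest were SIRT4 (2.14 ± 0.560), HDAC4 (3.03 ± 0.281) and NCOA1 (4.54 ± 0.364). Among writers the coactivator genes EP300 (22.2 ± 3.33), CREBBP (11.9 ± 2.41), NCOA3 (9.88 ± 1.21) and KAT2B (6.64 ± 1.06) were well below KAT2A and KAT5 (51.1 ± 11.2). Within class IIa, HDAC7 was the most abundant and HDAC4 the least in all 6 libraries.

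**Figure D3:**
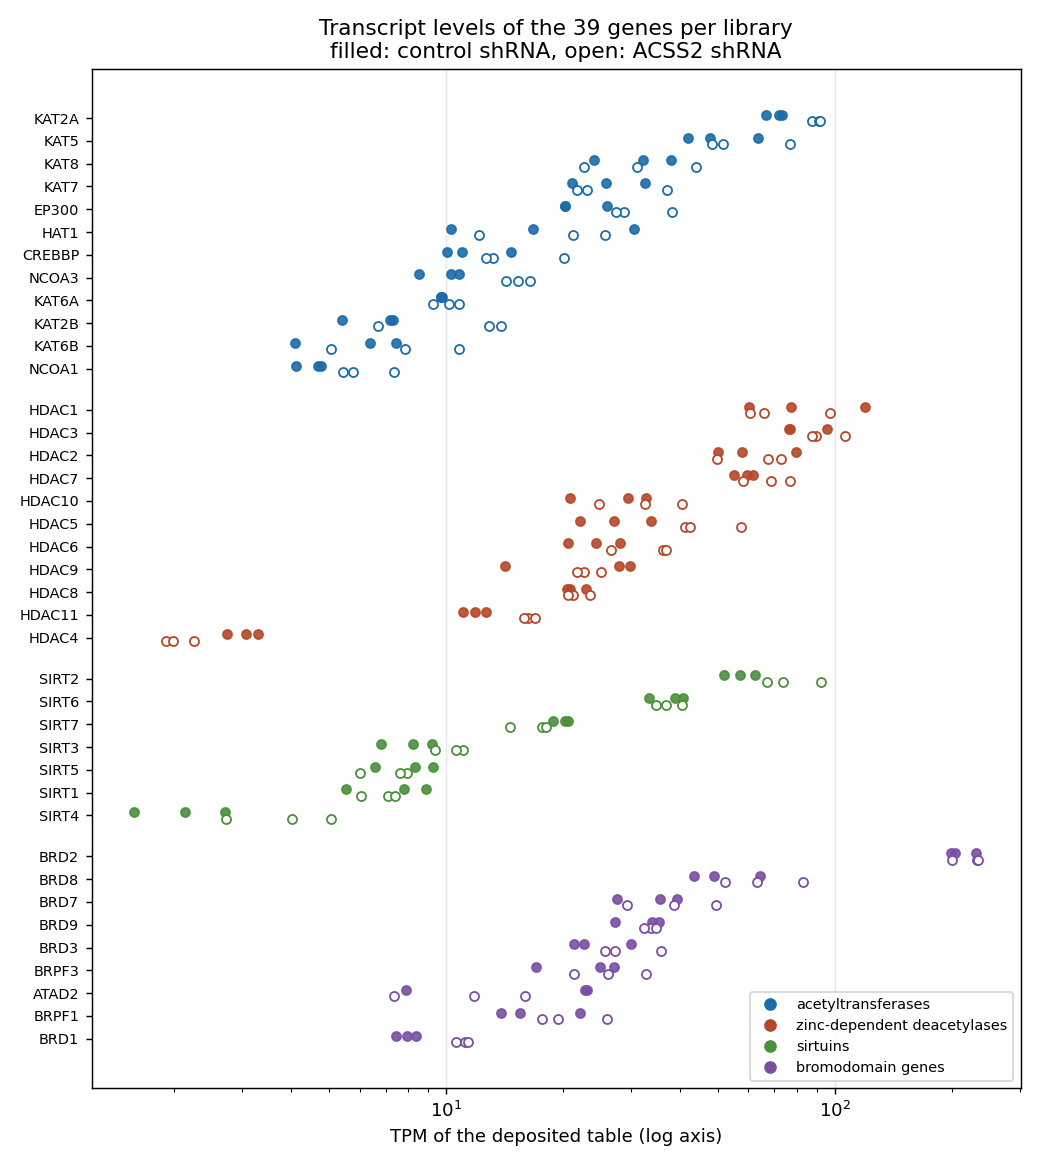
TPM of each of the 39 genes in the 3 control (filled) and 3 ACSS2 shRNA (open) libraries on a log axis, ordered within class by the control mean. BRD2 stands alone near 211 TPM, most genes lie between 5 and 100 TPM, and HDAC4 and SIRT4 are the lowest of their classes.

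Summed over each class, TPM was 289, 273 and 247 in control and 363, 315 and 301 in ACSS2 shRNA replicates 1, 2 and 3 for the acetyltransferases. The deacetylases summed to 448, 434 and 408 TPM in control and 484, 474 and 470 TPM in ACSS2 shRNA, and the sirtuins to 145, 133 and 143 and to 173, 155 and 153 TPM. These 3 sums did not overlap between groups, while those of the bromodomain genes did (443, 412 and 407 against 520, 424 and 439 TPM). Most of the rise in the sirtuin sum lay in SIRT2, which was not called (57.1 ± 5.17 TPM in control, 77.6 ± 13.1 in ACSS2 shRNA, SD, n = 3). Mean TPM was also higher in ACSS2 shRNA for SIRT3 and SIRT4, and lower for SIRT1, SIRT5, SIRT6 and SIRT7. On the TPM scale the median of all genes tested lay 0.11 above control on the log2 scale, against 0.02 in the TMM-scaled fits. The class medians of limma on log2(TPM + 1) were 0.33 for acetyltransferases, 0.19 for deacetylases, -0.01 for sirtuins and 0.22 for bromodomain genes. These medians and the class sums are both to be read against that 0.11. Overlap between groups in TPM was not counted over all genes.

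Without any model, 24 of the 39 genes moved the same way in all 3 pairs (18 up and 6 down), against 57.8% of all genes tested (3972 up and 3544 down). The control and knockdown values did not overlap for 10 of the 39, against 20.3% of all genes. These were KAT2A, NCOA1, NCOA3, HDAC5, HDAC11, SIRT2, SIRT3 and BRD1, all higher in ACSS2 shRNA, and HDAC4 and SIRT7, both lower. Of all genes 10.7% were higher without overlap and 9.63% lower. Of those 10 genes NCOA3, HDAC4 and HDAC5 were also called in the paired fit.

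The replicate number took a larger share of the variation than the hairpin for most of the 39 genes. The number has more levels than the group and would take the larger share of pure noise as well, so these shares are best read against all genes. In the paired fit 20 of them (51.3%) differed between replicate numbers at an adjusted p under 0.05, against 38.7% of all genes. By class these were 8 of 12 acetyltransferases, 6 of 11 deacetylases, 1 of 7 sirtuins and 5 of 9 bromodomain genes. The median share of the sum of squares of log2 CPM that followed the number was 68.5% for the 39 genes and 59.9% for all genes, and the share that followed the hairpin was 16.0% and 20.4%. HAT1, at 16.3, 26.9 and 9.95 CPM in control against 18.2, 21.6 and 11.4 in ACSS2 shRNA, followed the number almost alone (94.6% of its sum of squares). ATAD2 was low in both libraries numbered 3 (62.8% of its sum of squares), KAT6B was high in both numbered 1 (88.9%), and NCOA3 (5.54%) and HDAC11 (8.86%) hardly followed the number. The sources used here do not say what the numbers stand for beyond the batch tag.

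**Figure D4:**
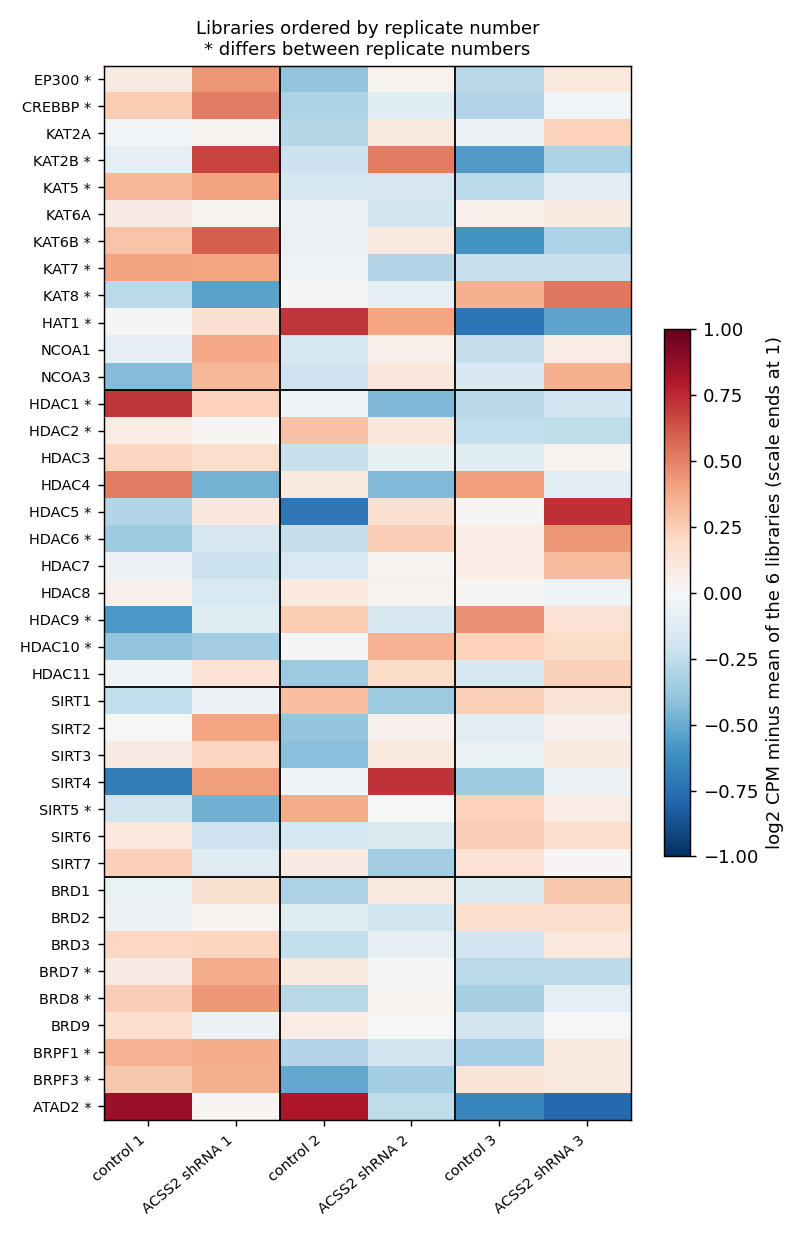
Log2 CPM of the 39 genes minus each gene's mean over the 6 libraries, with libraries ordered in pairs of equal replicate number and the colour scale ending at 1 on the log2 scale; stars mark the 20 genes that differed between replicate numbers. Both libraries of replicate 3 are blue for HAT1, KAT6B and ATAD2, while NCOA3 and HDAC11 alternate between control and ACSS2 shRNA.

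Close relatives were compared within each library as ratios of CPM, for 6 pairs of genes chosen for having a called member. With 3 libraries against 3 the exact two-sided permutation test cannot go below p = 0.1, so none of the ratios could pass. The HDAC5 to HDAC4 ratio was 4.98, 5.00 and 6.66 in control and 13.2, 13.2 and 15.6 in ACSS2 shRNA, a log2 difference of 1.35 (exact permutation p = 0.1, 0.4 after Benjamini-Hochberg adjustment over the 6 ratios). It was the only ratio whose groups did not overlap, and the step was nearly the same in each pair (1.23 to 1.41 on the log2 scale). That separation and its p were fixed beforehand, since HDAC5 was higher and HDAC4 lower without overlap, so the ratio adds no separate evidence. Ratios give a relative change and do not by themselves tell which partner moved. EP300 to CREBBP differed by 0.15 (exact permutation p = 0.2), NCOA3 to NCOA1 by 0.19 (p = 0.5) and KAT2B to KAT2A by 0.34 (p = 0.5), each with overlapping groups. HDAC6 to HDAC10 differed by 0.22 (exact permutation p = 0.2), and ATAD2 to ATAD2B by -0.84 (p = 0.3). This permutation does not use the replicate numbers. Within pairs of equal number the difference had the same sign in all 3 for EP300 to CREBBP (0.09 to 0.25), NCOA3 to NCOA1 (0.09 to 0.28), HDAC6 to HDAC10 (0.11 to 0.41) and ATAD2 to ATAD2B (-1.20 to -0.27), and not for KAT2B to KAT2A (-0.03 to 0.71).

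Partners of the 39 genes were read from 5 lists with 124 genes tested. The unpaired edgeR fit called none of them, with 16 at an unadjusted p under 0.05, against 1820 of all 13003 genes tested. Unpaired DESeq2 called 4, all lower, against 3.99% of all genes. These were ZMYND11 (adjusted p = 5.51e-06), GATAD2A (0.0114), RUVBL1 (0.0227) and NAT10 (0.0409), of which the first 3 also had a q under 0.05 in the authors' deposited table (1.35e-05, 0.0191 and 0.0447). In the paired edgeR fit the shares called were 18.9% of acetyltransferase complex subunits, 36.4% of other acetyltransferases, 15.4% of deacetylase complex subunits, 20.7% of other bromodomain and YEATS genes and 25% of NAD genes, beside 25.1% of all genes. Their median paired log2 fold changes were 0.12 for acetyltransferase complex subunits, 0.04 for other acetyltransferases, 0.03 for deacetylase complex subunits, 0.05 for other bromodomain and YEATS genes and 0.00 for NAD genes, beside 0.02 over all genes. Of 37 subunits of acetyltransferase complexes 4 rose and 3 fell in the paired fit. Among them RUVBL1, an ATPase shared by NuA4 and INO80, fell (-0.57, adjusted p = 0.00378, edgeR), as did the NuA4 subunit MRGBP (-0.52, adjusted p = 0.00662), and TADA2B of the SAGA module that holds KAT2A or KAT2B rose (0.58, adjusted p = 0.00713). Of 11 other acetyltransferases 2 rose and 2 fell, including the RNA acetyltransferase NAT10 (-0.74, adjusted p = 0.00128) and the cohesin acetyltransferase ESCO2 (-1.21, adjusted p = 0.00294) among those that fell and TAF1 (0.48, adjusted p = 0.00861) among those that rose. The ESCO2 groups overlapped.

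Of 39 subunits of deacetylase complexes 3 rose and 3 fell. The NuRD subunit GATAD2A (-0.78, adjusted p = 0.000903, edgeR) and TBL1X of the HDAC3 corepressor complex (-0.70, adjusted p = 0.00221) fell, and the NuRD ATPase CHD3 rose (0.42, adjusted p = 0.0191), without overlap between groups in any of these. Of 29 other bromodomain and YEATS genes tested 3 rose and 3 fell. ZMYND11, a bromodomain reader of H3.3 that restrains elongation, had 32.9, 31.6 and 24.0 CPM in control against 12.4, 13.2 and 11.2 in ACSS2 shRNA. At -1.26 (adjusted p = 0.000103 paired and 0.0718 unpaired, edgeR, and 0.0456 unpaired without the low-count filter) it moved further than any of the 39 genes. ASH1L (0.48, adjusted p = 0.0117) and BRWD3 (0.59, adjusted p = 0.0186) rose. Of 8 genes for NAD supply and use, on which sirtuins depend, NADK (-0.55, adjusted p = 0.00847) and PARP1 (-0.47, adjusted p = 0.0386) fell and none rose. The PARP1 groups overlapped, and in pair 3 it was slightly higher in ACSS2 shRNA (88.6 CPM) than in control (84.7 CPM).

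Over the whole set, 10 of the 39 genes hold TGGGTC in the 3′ UTR, against 29.1% of the 12791 tested genes for which a 3′ UTR is annotated. The 10 are KAT6A, KAT7, HDAC1, HDAC2, HDAC4, HDAC5, HDAC7, HDAC11, SIRT6 and BRPF3. ACSS2 holds 1 copy. Promoters (250 bases before to 50 after the start, RefSeq, GRCh38.p14) were found for 34 of the 39 genes and not for KAT6A, KAT8, HDAC5, SIRT7 and ATAD2. The E2F words TTTGGCGC, TTTCCCGC, TTTCGCGC and TTTGCCGC, searched on both strands, occur in those of SIRT6, BRD7 and BRPF3. That is 3 of 34, against 5.35% of the promoters of tested genes and 3.33% of all 27305, and none of these genes was called.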

How the data were processed

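RNA was measured by poly(A)-enriched sequencing on a BGI platform, per the labels' protocols. HISAT, Bowtie2 and RSEM are named in the submitters' processing notes, and the sources used here give neither versions nor the annotation. The deposited table holds expected counts per gene, TPM, and the authors' DESeq2 comparison as log2 fold changes with p-values and q-values, whose settings are not given. The 6 FPKM columns were not used. Left out were 565 lines of spilled text, and 26 date-like symbols were restored from gene IDs. Between 12.32% and 14.91% of expected counts above 0 in a library were not whole, and all were rounded. Gene positions are the spans the deposited table gives, which can be wider than the gene. Whether counting used strand is not given, so a gene and an overlapping antisense gene cannot be told apart.

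Groups were compared in edgeR 4.0.16 by its quasi-likelihood F test (R 4.3.3, TMM, filterByExpr with minimum count 10 and total 15) and Benjamini-Hochberg adjustment over 13003 genes, called at 0.05. The main fit has no replicate term. SE is the absolute log2 fold change over the square root of F. The labels' batch tag numbers libraries 1 to 3 in both groups. Deviations of same-numbered libraries from their group means correlated across genes by 0.716, 0.494 and 0.740, so the paired fit is given as well. The highest value for different numbers was -0.00998. Taking deviations from group means pushes these values below 0 on average when those of equal numbers are positive, so their sign is not separate evidence. Biological variation (edgeR's coefficient) was 26.6% without and 11.8% with the block. Alternatives were RLE factors, DESeq2 1.42.0, no filter, limma 3.58.1 on log2(TPM + 1) or log2(TPM + 0.1), and leaving out libraries or numbers. The code was tested on simulated data. With each group's libraries called biological replicates and no further detail, unpaired p-values measure the spread between these libraries. Paired p-values measure the spread left after differences between replicate numbers are removed. Genes, lists, motifs and ratios were chosen with earlier results of these data known. Named genes are all 39, ACSS2, and from each partner list the 3 called genes with the smallest paired p.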

Additional observations from a re-analysis of the deposited data

How the results depend on the processing

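No gene among the 39 was called by the unpaired fit under RLE factors, DESeq2, no filter, limma on log2 TPM or the omission of any library, and 7 were called with the replicate block. With the replicate block kept, the count was 12 with limma on log2(TPM + 1) and 12 on log2(TPM + 0.1) (11 higher and 1 lower in each, against 5 and 2 in edgeR), beside 25.9% and 25.6% of all genes. It was 6 with RLE factors, DESeq2 or no filter (24.0%, 20.2% and 20.7% of all genes), and 4 to 10 when a replicate number was left out: 10 without replicate 1, 4 without replicate 2 and 7 without replicate 3 (21.1%, 12.7% and 24.5% of all genes). Of the 7, NCOA3, HDAC5 and ATAD2 passed in all 8 alternatives to the paired fit, KAT2B in 7, EP300 and HDAC4 in 6 and HDAC6 in 3. The pairing rests on the labels' batch tag and changed the edgeR call of these 7 genes and of ACSS2, and of no other gene among the 39. In limma on log2(TPM + 1) the block also turned KAT2A, HDAC11, SIRT2, SIRT4, BRD1 and BRD8 into calls (adjusted p from 0.263 to 0.0244, 0.284 to 0.0335, 0.288 to 0.0116, 0.272 to 0.0117, 0.305 to 0.0436 and 0.531 to 0.0357).

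The sign was kept under every setting by 21 of the 39 genes. Of the 18 others, 16 never passed and are given no direction (log2 fold changes from -0.20 to 0.26 unpaired and -0.19 to 0.25 paired). HDAC1 turned to 0.04 unpaired without control replicate 1 and ran down to -0.53 without ACSS2 shRNA replicate 1. HDAC9 turned unpaired to 0.02 with limma at either pseudocount and to 0.07 without control replicate 3, and ran down to -0.40 without control replicate 1. With the replicate block it turned to 0.02 with limma at either pseudocount, to 0.04 without replicate 2 and to 0.02 without replicate 3. The causes were not tested. SIRT4 had the lowest CPM of the 39 genes (1.08 to 2.89), and the part of depth in its error was not tested.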
